A study of Mus musculus with 5 samples.

Results

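Wide domains of histone H3 trimethylated at lysine 27 (H3K27me3) were described in dermal fibroblasts of the mouse embryo. A domain was a stretch of the autosomes, chromosomes 1 to 19, where overlapping peaks of 4 ChIP-seq libraries were merged and where at least 1 single peak in any library was 10000 bp or wider. By this rule 692 of 24721 merged autosomal regions were wide domains. The width of the peaks chose the members, so the widths and covered lengths of the domains are given as a description.

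The study profiled wild-type dermal fibroblasts at E14.5 and E18.5, with 2 libraries per stage, to follow the mark while these cells differentiate. The sample labels give embryonic day 14 and embryonic day 17 for the pairs that the study calls E14.5 and E18.5. The cells were taken from dermis and expanded in culture, so each library is a mixed dermal preparation after growth on plastic, and all 4 libraries share this. Neither stage carried a transgene, a deletion or a drug treatment by the labels. Nothing in the labels says whether the libraries of a stage came from separate litters, so a difference between them may be technical or biological. In bulk chromatin, fewer cells that carry the mark and less mark per cell cannot be told apart.

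H3K27me3 is written by Polycomb repressive complex 2, whose catalytic subunits are Ezh1 and Ezh2, and is removed by the demethylases Kdm6a and Kdm6b. The complex is recruited mainly to unmethylated CpG-rich DNA, and the mark spreads outward from there. Wide domains of it lie over silent genes for transcription factors that specify other lineages, the Hox clusters being the best known case.

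The labelled cell type was checked by 12 dermal fibroblast genes that are active in this lineage, among them Col1a1, Col1a2, Col3a1, Pdgfra, Twist2, Lum and Dcn. The start sites of 0 of the 12 lay under a peak in any of the 4 libraries. In the order of the libraries, the start sites under a peak numbered 1, 1, 0 and 1 of 4 endothelial markers, 2, 0, 0 and 0 of 4 immune markers, and 2 in each library of 6 keratinocyte markers and of 4 markers of melanocytes and Schwann cells. They numbered 3, 2, 2 and 2 of 4 muscle markers and 3, 4, 3 and 3 of 4 neuron markers. Most endothelial and keratinocyte markers thus also lay outside peaks, as did all immune markers in 3 of the libraries, so the check does not set fibroblasts apart from those cells. Of all these markers, Pax7, Neurog1 and Neurod1 lay in a wide domain.

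Sequences of the reference genome show what DNA stayed under peaks and what did not. In the windows listed here, "kept" means that the stretch was covered in all 4 libraries, and "lost" that both E14.5 libraries covered it and no E18.5 library did. Each is a 200 bp window outside annotated exons, of GRCm38, plus strand. It was taken from the longest kept or lost stretch of the domain, at the place where its number of CpG dinucleotides was nearest to the average of that stretch. CpG dinucleotides are in capitals. The Osr2 and the Hoxd3 and Hoxd4 domains had the largest falls in covered share, the Zic1 and Zic4 domain was among the 5 with the widest single peak, and the Sox21 domain was among those with the smallest fall.
Osr2 kept, chr15:35293845-35294044: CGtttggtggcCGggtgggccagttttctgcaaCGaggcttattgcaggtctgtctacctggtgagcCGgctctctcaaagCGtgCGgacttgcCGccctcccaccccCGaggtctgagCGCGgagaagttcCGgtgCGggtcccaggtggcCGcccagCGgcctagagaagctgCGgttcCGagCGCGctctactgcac
Osr2 lost, chr15:35295841-35296040: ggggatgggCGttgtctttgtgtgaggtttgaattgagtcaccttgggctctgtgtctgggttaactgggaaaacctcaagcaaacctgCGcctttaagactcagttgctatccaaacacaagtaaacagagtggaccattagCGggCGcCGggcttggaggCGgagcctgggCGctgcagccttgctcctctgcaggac
Zic1 and Zic4 kept, chr9:91386244-91386443: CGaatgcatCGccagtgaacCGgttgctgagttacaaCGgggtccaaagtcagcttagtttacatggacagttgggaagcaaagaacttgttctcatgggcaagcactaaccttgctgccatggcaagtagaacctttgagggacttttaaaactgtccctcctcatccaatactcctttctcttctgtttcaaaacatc
Zic1 and Zic4 lost, chr9:91373924-91374123: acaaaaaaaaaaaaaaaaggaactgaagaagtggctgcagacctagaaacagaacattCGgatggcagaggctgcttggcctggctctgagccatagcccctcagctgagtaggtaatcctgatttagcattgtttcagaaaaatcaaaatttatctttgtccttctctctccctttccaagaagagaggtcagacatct
Hoxd3 and Hoxd4 kept, chr2:74751329-74751528: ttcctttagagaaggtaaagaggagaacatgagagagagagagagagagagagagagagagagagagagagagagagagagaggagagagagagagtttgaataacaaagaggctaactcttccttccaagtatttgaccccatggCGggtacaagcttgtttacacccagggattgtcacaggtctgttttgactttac
Hoxd3 and Hoxd4 lost, chr2:74740967-74741166: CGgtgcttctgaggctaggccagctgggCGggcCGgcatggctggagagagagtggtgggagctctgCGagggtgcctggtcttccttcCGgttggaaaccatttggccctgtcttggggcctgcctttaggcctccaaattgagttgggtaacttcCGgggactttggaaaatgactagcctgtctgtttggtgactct
Sox21 kept, chr14:118231946-118232145: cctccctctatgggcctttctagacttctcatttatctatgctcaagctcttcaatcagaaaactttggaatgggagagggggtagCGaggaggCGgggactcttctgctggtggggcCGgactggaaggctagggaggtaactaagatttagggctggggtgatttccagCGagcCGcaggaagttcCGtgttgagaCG
The Osr2 windows hold 18 CpG where the mark was kept and 7 where it was lost. The Zic1 and Zic4 windows hold 4 and 1. The Hoxd3 and Hoxd4 domain went the other way, with 1 CpG in the kept window and 6 in the lost one. It was not the only domain to do so, as given with the CpG densities below. The Sox21 window holds 7.

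The domains were long and few. Their median length was 14514.5 bp, the middle 50% lay between 11777 and 21050 bp, and the longest was 136545 bp. Together they spanned 12.7 Mb. There were 192 domains of at least 20 kb, 65 of at least 30 kb and 13 of at least 50 kb. At the limit of the rule, the 3 domains just inside had widest peaks of 10006, 10009 and 10013 bp, the last over Kcnk15, a potassium channel gene. The 3 regions just outside had widest peaks of 9996, 9989 and 9982 bp, the first over Elfn2 and the second over Cldn23. Lengths therefore ran on without a step at the limit.

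E14.5 replicate 1 held a wide peak in nearly all domains. A peak of 10 kb or wider was present in 686 domains in E14.5 replicate 1, in 345 in E14.5 replicate 2, in 210 in E18.5 replicate 1 and in 168 in E18.5 replicate 2. In 341 domains the wide peak was in E14.5 replicate 1 alone, and in 6 it was in E14.5 replicate 2 alone. In 160 domains it was in all 4 libraries, and in 127 it was in the E14.5 pair alone. A wide peak in the E18.5 pair alone was found in 0 domains. The near-complete cover of E14.5 replicate 1 given next follows from its part in this choice.

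Each library covered less of the domains than the one before, in the order E14.5 replicate 1, E14.5 replicate 2, E18.5 replicate 1 and E18.5 replicate 2. The peaks covered 12.6 and 10.3 Mb of the domains at the earlier stage and 8.28 and 6.82 Mb at the later one. The stages did not overlap, and the mean was 11.5 ± 1.59 Mb (SD, n = 2) at E14.5 and 7.55 ± 1.03 Mb (SD, n = 2) at E18.5. Both belong to the measure that chose the domains, and 2 libraries against 2 cannot give an exact permutation p below 0.33, so no difference between the stages can pass a threshold of 0.05.

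The median covered share of a domain was 99.9% in E14.5 replicate 1, 83.7% in E14.5 replicate 2, 65.4% in E18.5 replicate 1 and 51.1% in E18.5 replicate 2. The middle 50% of domains lay between 70.7% and 90.8% in E14.5 replicate 2, between 47.5% and 78.8% in E18.5 replicate 1 and between 31.0% and 68.2% in E18.5 replicate 2. The E14.5 replicates thus differed by 16.2 points in the median and the E18.5 replicates by 14.3 points, while the nearest libraries of different stages differed by 18.3 points. Domains covered over at least 90% of their length numbered 681, 194, 46 and 14 in the same order. Those covered over less than 50% numbered 0, 43, 192 and 336.

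**Figure D1:**
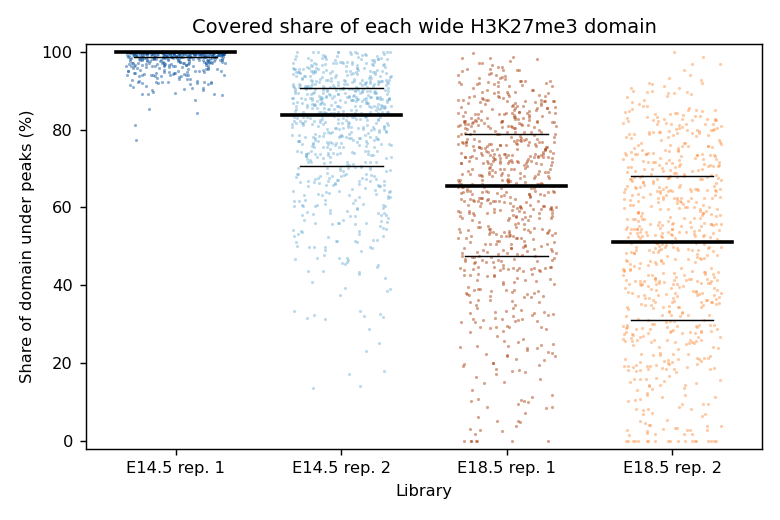
Share of each of the 692 domains lying under peaks (percent, vertical axis) in each library (horizontal axis). Each point is a domain, the thick line is the median and the thin lines are the 25th and 75th percentiles, and the median steps down from 99.9% to 51.1% over the 4 libraries.

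The fall in the mean covered share from E14.5 to E18.5 had a median of 32.5 percentage points over the domains. Without E14.5 replicate 1, which left 359 domains, it was 15.8 points, and the covered length at E18.5 differed from that at E14.5 by -17.7%, where it differed by -34.2% with all 4 libraries. With every list cut to its 7008 peaks of lowest q-value, so that the lists held equally many peaks, the fall was 29.9 points and the covered length differed by -32.9%. The whole lists shrank in the same order, from 52.3 and 30.9 Mb for the E14.5 pair to 19.8 and 14.2 Mb for the E18.5 pair. The lists hold no read counts, and the part of library depth in the falls was not tested.

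Covered length was below both E14.5 libraries in both E18.5 libraries in 625 of 692 domains, or 90.3%. The share was 87.6% among all 10244 autosomal regions that both E14.5 lists marked, so the wide domains were close to the background in this count. It was above both E14.5 libraries in 0 domains, against 0.273% of all such regions. The order also held within stages, with E14.5 replicate 2 below replicate 1 in 661 domains and E18.5 replicate 2 below replicate 1 in 625.

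Complete loss of peaks was rare in the domains. No peak was left in either E18.5 library in 6 domains (0.867%), against 38.0% of all autosomal regions marked in both E14.5 lists. A further 14 domains had a peak in 1 E18.5 library only, and 672 had a peak in all 4 libraries. Long regions have more bases in which a peak can remain, so the bases themselves were also compared. Of the bases covered in both E14.5 libraries, E18.5 replicate 1 covered 77.4% in the wide domains, 62.8% in regions whose widest peak was 5 to 10 kb, 43.6% at 2 to 5 kb and 17.3% under 2 kb. In E18.5 replicate 2 the shares were 65.3%, 48.5%, 28.3% and 9.06%. The order by width was the same in both E18.5 libraries. The classes were set by peak widths in the same libraries. An edge that moves inward also takes a larger part of a short region, so the comparison of bases is not free of length.

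As a result, the domains took a larger part of the marked genome in the shorter lists. Of all autosomal bases under peaks, 24.1% and 33.4% lay in the domains in the E14.5 libraries and 41.8% and 48.1% in the E18.5 libraries. The mean was 28.7 ± 6.63% (SD, n = 2) and 44.9 ± 4.48% (SD, n = 2), without overlap of the stages. This share rests on the same peak widths that chose the domains and is given without a test. This share was higher the shorter the whole list was, within stages too.

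The wide peaks of 1 library were then read in the libraries that had no part in choosing them. The 687 wide peaks of E14.5 replicate 1 were covered for a median of 83.9% of their length in E14.5 replicate 2, 66.4% in E18.5 replicate 1 and 52.6% in E18.5 replicate 2. In 625 of them (91.0%) both E18.5 libraries covered less than E14.5 replicate 2, and in 5 both covered more. The 358 wide peaks of E14.5 replicate 2 were covered for a median of 100% in E14.5 replicate 1, 87.7% in E18.5 replicate 1 and 79.4% in E18.5 replicate 2.

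Peaks chosen at E18.5 gave the mirror image. The 220 wide peaks of E18.5 replicate 1 had a median cover of 100% in both E14.5 libraries and of 91.7% in E18.5 replicate 2. The 178 wide peaks of E18.5 replicate 2 had a median cover of 100% in each of the other 3 libraries. What was wide at E18.5 was thus also covered at E14.5, whichever E18.5 library chose it. The same held within stages, with a median of 100% for wide peaks of either replicate 2 read in replicate 1. Both E14.5 lists covered more bases than both E18.5 lists, so stage and list length cannot be told apart here.

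The number of pieces into which a domain was broken did not separate the stages. The peaks in the domains numbered 725 and 1747 in the E14.5 libraries and 1836 and 1619 in the E18.5 libraries, or a mean of 1.05, 2.52, 2.65 and 2.34 pieces per domain. E14.5 replicate 2 lay between the E18.5 libraries, and E14.5 replicate 1, which chose most domains, stood alone. Domains with at least 2 pieces numbered 33, 467, 509 and 451. The stage difference of 0.71 pieces turned to -0.18 when only peaks with a −log10 q-value of at least 5 were used, and to -0.077 when peaks within 3000 bp were merged.

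The edges of the domains lay further inside at E18.5. In the 672 domains with a peak in all 4 libraries, the outermost covered base lay at a median of 0 bp inside the border in E14.5 replicate 1, 436 bp in E14.5 replicate 2, 1258.5 bp in E18.5 replicate 1 and 2150.5 bp in E18.5 replicate 2. The mean of both edges moved inward by a median of 1569 bp between the stage means, and it moved inward in 663 of the 672 domains. It was 825 bp without E14.5 replicate 1. Edges also moved inward within a stage, by a median of 412 bp from E14.5 replicate 1 to replicate 2 and by 488 bp from E18.5 replicate 1 to replicate 2. Across stages the smallest step was 617 bp, from E14.5 replicate 2 to E18.5 replicate 1, and the largest 2072 bp, from E14.5 replicate 1 to E18.5 replicate 2.

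The retreat was alike at both ends. The median was 1426 bp at the left edge and 1326 bp at the right edge. In the 407 domains with start sites of a single protein-coding gene, it was 1412 bp upstream and 1286 bp downstream of the gene's direction. The 2 sides differed by less than the libraries of a stage did.

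**Figure D2:**
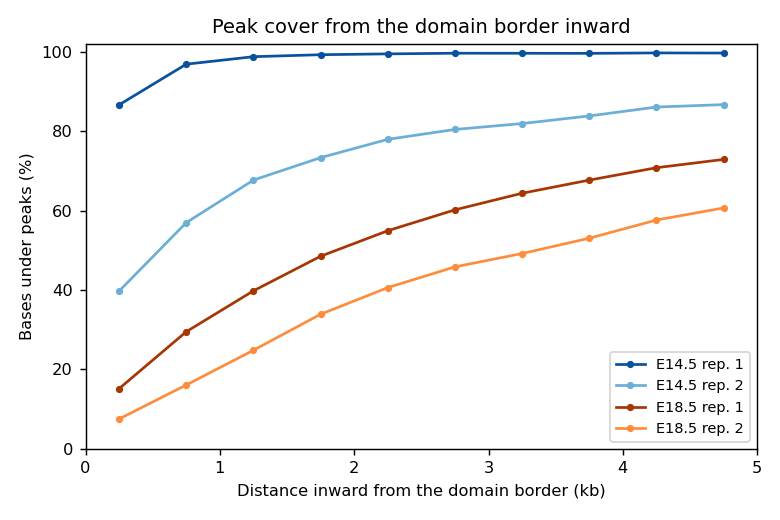
Share of bases under peaks (percent, vertical axis) in 500 bp steps from the border of the domain inward (kilobases, horizontal axis), over both borders of all 692 domains, with 1 line per library. In the first 500 bp the lines stand at 86.7%, 39.7%, 15.2% and 7.51%, and between 4.5 and 5 kb they stand at 99.7%, 86.7%, 72.9% and 60.7%.

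Bases were lost at the edges and in the interior in nearly equal amounts. The E14.5 libraries shared 10.2 Mb of cover in the domains. Of this, 62.3% was covered in both E18.5 libraries, 18.1% in 1 of them and 19.6%, or 2.0 Mb, in neither. Of the bases in neither, 50% lay outside the outermost E18.5 peaks, 48.8% lay in gaps between E18.5 peaks and 1.18% lay in domains without an E18.5 peak.

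The bases that stayed under peaks were rich in CpG. Kept bases held 27.4 CpG per kb and lost bases 12.8 CpG per kb, against 20.1 over the whole domains, 15.8 in peaks outside the domains and 8.51 over the autosomes. The kept bases were 50.4% GC and 16.5% repeat-masked, and the lost bases 46.5% GC and 23.3% repeat-masked. Among the 582 domains with at least 500 bp of each kind, the kept bases were the denser in CpG in 524 (90%), with medians of 27 and 10.5 CpG per kb. The Zic1 and Zic4 domain, whose windows are printed above, was among the 524 and the Hoxd3 and Hoxd4 domain was not. The Hoxc domain was not among them either, with 20.4 CpG per kb in kept bases and 22.8 in lost bases. Nor was the domain over Evx2 and Hoxd8 to Hoxd13, with 29.6 in kept bases and 31.9 in lost bases. Lost bases were also the denser in the domains described below whose nearest coding start sites are those of Foxo1 and Rybp. The Osr2 domain, with 275 bp kept, was too short in kept bases to be counted. Its lost bases held 33.5 CpG per kb, more than the 27.4 of the kept bases of all domains, so this domain lost CpG-rich bases.

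The same gradient was present between libraries of a single stage. Windows of 200 bp that E14.5 replicate 1 covered in full were covered in E14.5 replicate 2 over 71.3% of their bases when they held no CpG and over 96.6% when they held 10 to 14. In E18.5 replicate 1 these values were 51.4% and 91.3%, and in E18.5 replicate 2 they were 35.9% and 89.1%. Windows of E18.5 replicate 1 were covered in E18.5 replicate 2 over 65.3% and 97.0%. CpG-poor parts of a domain were thus less covered in the second library of every pair read this way, within stages too. The step between the E14.5 libraries was smaller than the step to either E18.5 library. Among domains with enough bases of each kind, bases covered in both E14.5 libraries were denser in CpG than those of E14.5 replicate 1 alone in 552 of 646.

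**Figure D3:**
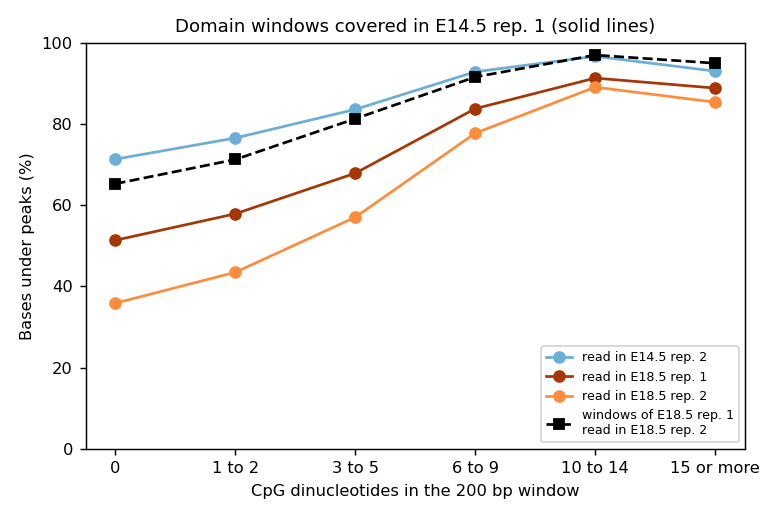
Share of bases under peaks (percent, vertical axis) in 200 bp windows of the domains, grouped by the number of CpG dinucleotides they hold (horizontal axis). Solid lines are windows covered in full in E14.5 replicate 1 and read in the other 3 libraries, the dashed line is windows of E18.5 replicate 1 read in E18.5 replicate 2, and every line is lowest where the windows hold no CpG and highest at 10 to 14.

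Bases near start sites held their cover better than the rest of the domains, without matching for CpG density or distance from the border. The part of these traits in the difference was not tested. Of the bases covered in both E14.5 libraries, those within 500 bp of a start site were covered in E18.5 replicate 1 over 87.2%, against 75.9% elsewhere. In E18.5 replicate 2 the values were 81.2% and 63.0%. The difference had the same direction within stages. Bases of E14.5 replicate 1 were covered in E14.5 replicate 2 over 91.6% near start sites and 79.8% elsewhere, and bases of E18.5 replicate 1 in E18.5 replicate 2 over 88.8% and 75.9%.

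Start sites of 585 of 20807 autosomal protein-coding genes (2.81%) lay inside the domains. A coding start site was present in 484 of the 692 domains (69.9%), against 52.3% of regions with a widest peak of 5 to 10 kb and 3.60% of those under 2 kb. Start sites of 1 gene were found in 410 domains and of at least 2 genes in 74. A further 64 domains lay within a coding gene body without a start site, and 144 touched no coding gene.

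Few of these genes lost the peak at their start sites. Any annotated start site of a gene counted here, inside the domain or not. Of the 585 genes, 543 had an annotated start site under a peak in both E14.5 libraries, 459 of these (84.5%) kept one in both E18.5 libraries and 45 (8.29%) had none under a peak in either. The background was 23.7% of all 2476 coding genes with a start site so covered, and it was 28.1% (543 of 1933) among genes outside the domains. Of the 45 genes, 10 were Hox genes. Others were Osr2, which encodes an odd-skipped zinc finger factor, Dmrt2, a doublesex-related factor, Ngfr, a neurotrophin receptor, and H2-K1, a class I histocompatibility gene. These 4 were picked as examples with their values known.

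Genes for lineage transcription factors filled a large part of the domains. Of 306 genes in 11 lists of such factors, 194 (63.4%) had a start site in a domain, and they occupied 165 domains (23.8%). The lists of all 9 Pax genes and all 5 AP-2 genes lay in domains, as did 35 of 39 Hox genes, 4 of 5 Gata genes, 86 of 119 other homeobox genes and 10 of 16 T-box genes. Shares were lower for the forkhead genes, with 16 of 41, the bHLH lineage factors, with 17 of 41, and the Sox genes, with 7 of 18. Each of these lists stood above the 2.81% of all coding genes.

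**Figure D4:**
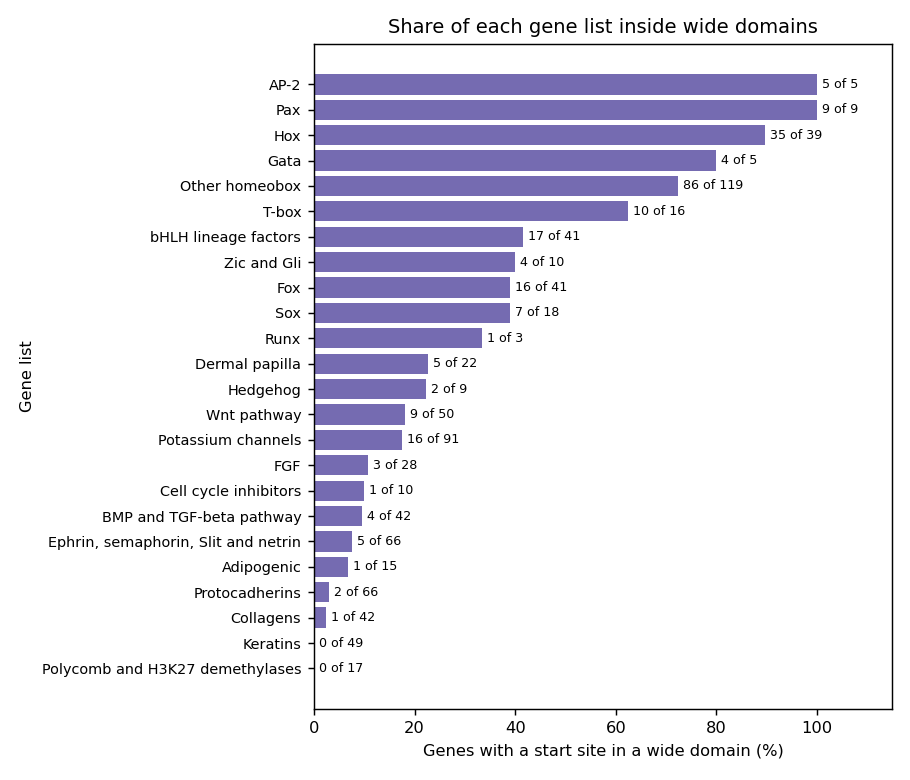
Share of the genes of each list with a start site in a wide domain (percent, horizontal axis), with counts beside the bars, for 24 gene lists (vertical axis). Transcription factor families fill the upper end, while keratins and the Polycomb and demethylase genes stand at 0.

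Domains over these factors were longer and lost less cover than the others. The median length was 21940 bp over these factors, 13364 bp over other coding start sites and 13116 bp in domains without one. Median covered shares, in the order of the libraries, were 99.9%, 88.4%, 79.4% and 69.7% over transcription factors. They were 100%, 83.3%, 63.8% and 49.5% over other coding start sites and 99.9%, 76.1%, 51.3% and 33.9% in domains without a coding start site. The order of the 3 kinds was the same in the 3 libraries other than E14.5 replicate 1. Length and kind moved together, with transcription factors in 10.1% of the domains of 10 to 15 kb and in 76.9% of those of 50 kb or longer. CpG moved with them too, at medians of 22.7, 21.1 and 13.2 per kb.

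The homeobox genes outside the Hox clusters, many of which specify neural and organ fields, mostly kept their start sites under peaks, as did genes in domains as a whole. Of 83 with a covered start site in both E14.5 libraries, 78 kept it in both E18.5 libraries and Vax2 alone had it in neither, where 84.5% of all domain genes kept one and 8.29% had it in neither. The Vax2 domain itself, of 43050 bp, was covered over 99.5%, 90.1%, 74.0% and 56.4%. Nkx2-3, a gut and spleen factor, lay in a domain of 61458 bp on chromosome 19 (43566239 to 43627696) with shares of 100%, 83.9%, 77.4% and 64.7%. Dmbx1, a factor of the midbrain, lay in 57732 bp on chromosome 4 (115926959 to 115984690) with 99.6%, 89.3%, 63.9% and 51.5%, in 1, 8, 12 and 10 pieces. Both domains were lower in each E18.5 library than in either E14.5 library. Dlx5, a factor of limb and branchial arch, had 99.0%, 90.3%, 92.6% and 84.2% in a domain of 45845 bp, where E18.5 replicate 1 exceeded E14.5 replicate 2.

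The paired-box genes behaved alike. All 9 had a covered start site at E14.5 in each library, and 8 kept it in both E18.5 libraries. The widest of their domains held Pax3, a factor of neural crest and muscle precursors, on chromosome 1 (78163815 to 78222432). It was covered over 99.7%, 87.8%, 81.9% and 72.4% in the order of the libraries, and its single peak of 58446 bp in E14.5 replicate 1 was a widest peak of 33892 bp in E18.5 replicate 2. The AP-2 genes, factors of ectoderm and neural crest, all kept a covered start site, and the median shares of their 5 domains were 99.9%, 97.2%, 89.6% and 82.5%.

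The other factor families are to be read against the 84.5% of all domain genes that kept a covered start site (no difference from it was tested). Forkhead genes kept 15 of 15 covered start sites, with median shares of 100%, 86.5%, 76.8% and 72.1%. Sox genes kept 7 of 7, and the domain of Sox2, a stem cell factor that also marks dermal papillae, covered 99.8%, 96.9%, 92.4% and 85.5% of 38003 bp. Gata genes kept 4 of 4, with median shares of 99.5%, 86.3%, 85.8% and 84.4%. Their median fall of 9.81 points was the smallest among the 11 lists, followed by 12.6 points for AP-2. In 2 of the 4 Gata domains the stages overlapped, among them that of Gata2, at 100%, 77.1%, 77.4% and 71.3%. The bHLH factors kept 16 of 17, with the domain of Hand2, a heart and limb factor, at 100%, 87.8%, 61.6% and 54.4% of 50814 bp.

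A domain that borders a T-box gene held 1 of the largest falls. The Tbx18 domain, 12422 bp on chromosome 9 (87731216 to 87743637), was covered over 100% and 84.4% by the E14.5 libraries and 18.3% and 26.1% by the E18.5 libraries. Tbx18 is a mesenchymal factor of somites, heart and the dermis of hair follicles. The E18.5 libraries lay close together and far below both E14.5 libraries. Of the 10 T-box domains, 8 were lower in both E18.5 libraries, against 90.3% of all domains. T-box genes kept 7 of 8 covered start sites, against 84.5% of all domain genes. The exceptions with overlapping stages were Tbx4 and Tbx5, the factors of hind limb and forelimb, Tbx5 being picked with its values known. Shares were 100%, 63.5%, 66.1% and 47.0% for Tbx4 and 100%, 83.7%, 83.9% and 53.5% for Tbx5.

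The Osr2 domain had the largest fall among the 339 domains that were wide in both E14.5 libraries. It spans 11389 bp of chromosome 15 (35293153 to 35304541). It was covered over 99.7% and 95.6% at E14.5, in 1 piece in each library, and over 2.68% and 5.31% at E18.5. A single stretch of 275 bp near the left border, which holds the CpG-dense window printed above, was covered in all 4 libraries. The window of 500 bp either side of its start sites was covered over 100% in both E14.5 libraries, 0% in E18.5 replicate 1 and 9.62% in E18.5 replicate 2.

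Hox genes, which set position along the body axis, lay in 5 of the 10 domains with the widest single peak, and these domains differed in how much cover they kept. The Hoxc domain, from Hoxc4 to Hoxc13, was the longest of all, with 136545 bp on chromosome 15 (102894952 to 103031496). It was covered over 100%, 77.9%, 57.3% and 54.4%. The right edge, on the side of Hoxc4, lay 50430 bp further inside at E18.5, the largest retreat of any domain, while the left edge lay 1973 bp further inside. The windows at the start sites of Hoxc6 and Hoxc8 had 62.6% and 100% cover in E14.5 replicate 2 and 0% in both E18.5 libraries. Those of Hoxc11, Hoxc12 and Hoxc13 had 100% in all 4 libraries. Order along the cluster was not strict. Hoxc5 windows had 100%, 50%, 49.8% and 47.4%, and the Hoxc10 window 100%, 100%, 35.0% and 30.2%. The Hoxc10 start site lay in a gap between long E18.5 peaks, from 71.254 to 71.995 kb of the domain in replicate 1, and is counted as lost.

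The Hoxb domain from Hoxb3 to Hoxb9 broke up most. It spans 103050 bp of chromosome 11 (96244257 to 96347306) and was covered over 100%, 68.6%, 37.1% and 35.0%, in 1, 19, 14 and 11 pieces. The number of pieces was thus highest in an E14.5 library. Its right edge, on the side of Hoxb3, retreated by 20220 bp, and the start sites of Hoxb3, Hoxb4 and Hoxb5 were among those lost. The neighbouring domain over Hoxb13, of 63961 bp, was covered over 100%, 91.4%, 82.4% and 75.2%.

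The Hoxd cluster was split between 2 of the named domains. Over Hoxd3 and Hoxd4, 38130 bp on chromosome 2 (74718727 to 74756856) were covered over 100%, 65.9%, 5.25% and 2.55%, and the left edge retreated by 30314 bp. Over Evx2 and Hoxd8 to Hoxd13, 61949 bp (74642719 to 74704667) were covered over 99.8%, 90.2%, 80.8% and 82.5%. In this second domain the start-site window of Hoxd8 was covered over 55.2%, 31.6%, 0% and 0%. That of Hoxd9 was covered over 100%, 47.9%, 2.997% and 0%. Those of Evx2, Hoxd10, Hoxd12 and Hoxd13 had 100% in all 4 libraries. Hoxd8 and Hoxd9 are left out of the counts below, as E14.5 replicate 2 had no peak at any of their start sites. Hoxc4 is counted through a start site outside the domain. Its window inside the domain had 0% cover in E14.5 replicate 2. Lost bases of the first domain held 28.1 CpG per kb and its kept bases 4.11. In the second domain lost bases held 31.9 CpG per kb and kept bases 29.6. The Hoxa domain of 90353 bp was covered over 100%, 92.8%, 86.6% and 74.1%, and its Hoxa5 start site was under a peak in neither E18.5 library. Over the 32 Hox genes with a covered start site in both E14.5 libraries, 20 kept it in both E18.5 libraries and 10 had it in neither, against 8.29% of all genes in domains.

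**Figure D5:**
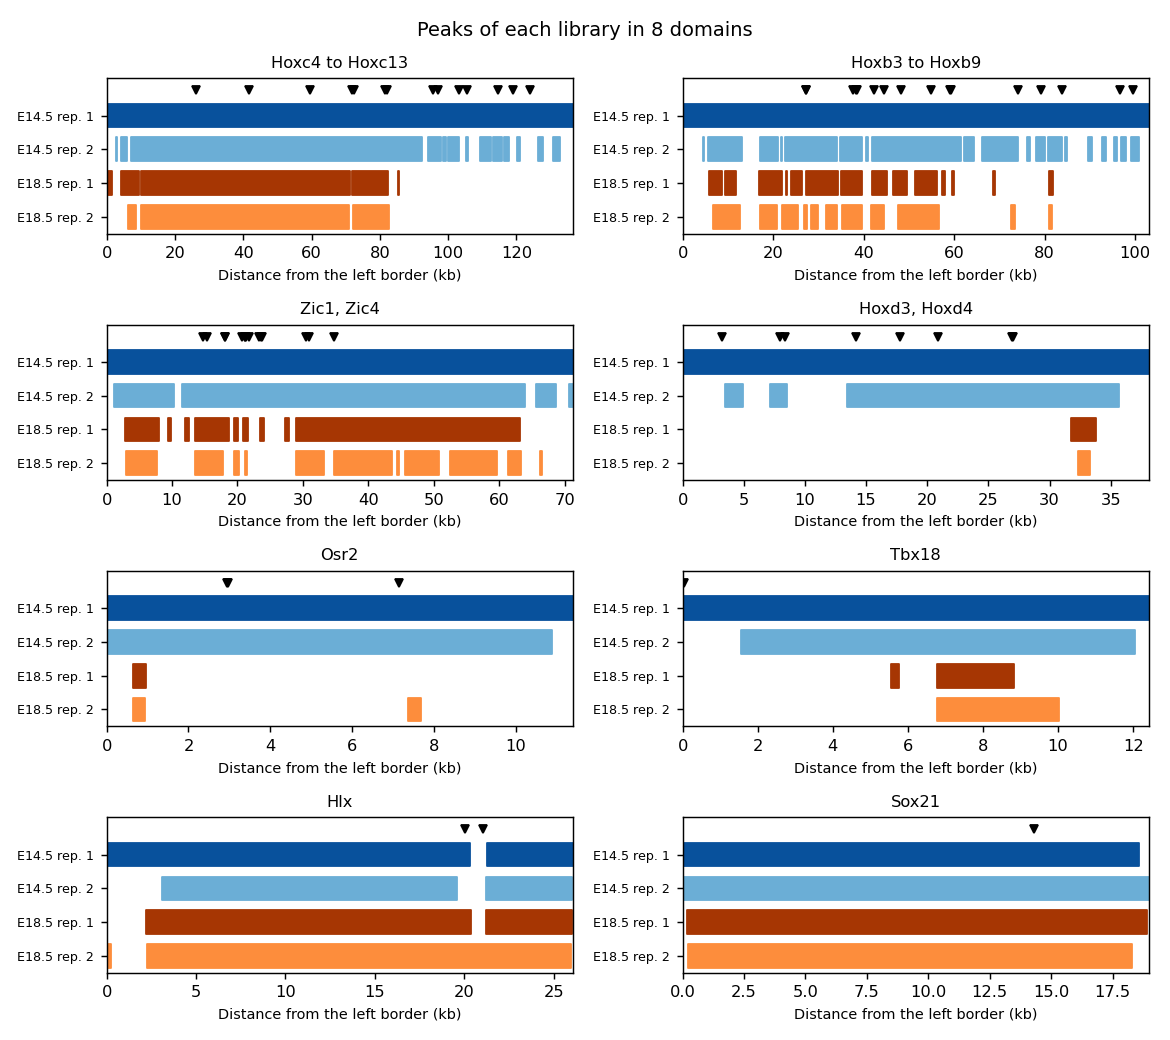
Peaks of each library (rows) as bars along 8 domains, by distance from the left border (kilobases, horizontal axis), with start sites of protein-coding genes as triangles. The Hoxc domain ends about 50 kb earlier at E18.5, the Hoxb domain is in pieces in 3 libraries, the Osr2 and the Hoxd3 and Hoxd4 domains are nearly empty at E18.5, and the Hlx and Sox21 domains are covered alike.

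Some domains showed little difference. The Sox21 domain, over a factor of neural progenitors, spans 18985 bp of chromosome 14 (118222736 to 118241720) and was covered over 97.7%, 100%, 98.5% and 95.2% in 1 piece in each library. The Sall3 domain, over a zinc finger factor, was covered over 99.8%, 97.5%, 98.3% and 96.8%. A domain of 11432 bp on chromosome 11, whose centre lies 6.02 kb from the nearest coding start site, that of the Polycomb gene Cbx8, was covered over 97.3%, 99.3%, 97.0% and 96.8%. In the Hlx domain, over a homeobox factor of gut and liver mesenchyme, the shares were 96.3%, 81.8%, 88.0% and 91.9%, so that both E18.5 libraries lay between the E14.5 libraries. The stages overlapped in the Sox21, Sall3 and Hlx domains, while near Cbx8 both E18.5 libraries were lower, with a difference of 1.38 points between the stage means.

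Some domains without a coding start site were among those that lost most. Distances given here run from the centre of the domain to the nearest coding start site. A domain of 10710 bp on chromosome 6 (99978703 to 99989412), 249 kb from the nearest coding start site, that of Rybp, was covered over 99.4%, 95.6%, 35.8% and 24.0%. A domain of 12689 bp on chromosome 4 (123153176 to 123165864), 19.6 kb from the start site of Ppie, was covered over 99.0%, 85.4%, 37.7% and 21.3%. The longest gaps inside domains at E18.5, after that of Hoxb, lay in 2 domains without a coding start site. The first, on chromosome 15 and 32.0 kb from Calcoco1, was covered over 100%, 69.5%, 44.5% and 33.1%. The second, on chromosome 3 and 335 kb from Foxo1, was covered over 100%, 53.7%, 29.4% and 18.8%.

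Signalling genes were sparser in the domains than the factor families, though each list stood above the 2.81% of all coding genes. Of 50 genes of the Wnt pathway, 9 (18%) had a start site in a domain, 8 of them ligands and the other the agonist Rspo1. Against 84.5% of all domain genes, all 9 kept a covered start site in both E18.5 libraries. Their median shares were 100%, 90.5%, 59.0% and 43.5%, with the domain of Wnt10a and Wnt6 at 95.9%, 90.5%, 59.0% and 55.1%. The BMP and TGF-beta list had 4 of 42 genes in domains (9.52%), the FGF list 3 of 28 (10.7%) and the hedgehog list 2 of 9 (22.2%). Among them were the ligands Bmp4, Fgf8 and Shh. The Bmp4 domain was covered over 100%, 84.3%, 69.0% and 63.3% of 10816 bp and the Shh domain over 99.9%, 88.6%, 84.4% and 73.5% of 15240 bp. Both were lower in each E18.5 library than in either E14.5 library.

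Genes of skin and fat lay in the domains in unequal shares, to be read against the 2.81% of all coding genes. Of 22 dermal papilla genes, 5 (22.7%) did (Sox2, Hes5, Runx3, Rspo1 and Bmp4). All 5 kept a covered start site, where 84.5% of all domain genes kept one. The Runx3 domain was covered over 100%, 89.0%, 62.3% and 40.4% of 14278 bp and the Hes5 domain over 100%, 89.4%, 71.1% and 70.0% of 15969 bp. Of 15 adipogenic genes (6.67%), Ebf2 alone lay in a domain, with 100%, 91.3%, 82.9% and 68.3%. Of 42 collagens (2.38%), near the share of all genes, Col2a1 alone did, a cartilage collagen, with 99.8%, 89.6%, 73.7% and 59.6%. Of 49 keratins and of 17 Polycomb and demethylase genes, 0 did.

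Ion channel and guidance genes were also counted. Potassium channels had 16 of 91 genes (17.6%) in domains. Of 15 covered start sites 12 were kept, against 84.5% over all domain genes, and that of Kcng1 was under a peak in neither E18.5 library. The Kcnj10 domain, over an inward rectifier, had 100%, 97.0%, 93.5% and 51.0%, so that the E18.5 libraries differed from each other by more than E18.5 replicate 1 differed from either E14.5 library. The ephrin, semaphorin, Slit and netrin list had 5 of 66 genes in domains (7.58%). The protocadherins had 2 of 66 (3.03%), close to the 2.81% of all coding genes. Of 10 cell cycle genes, Cdkn2a alone lay in a domain, with 99.5%, 92.6%, 73.4% and 67.5%.

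Among the domains were 6 of mostly repeated sequence, with at least 50% of their bases repeat-masked, where the median was 18.3%. Reads from repeated sequence can be placed at more than 1 locus, so these domains are uncertain. The longest, 88149 bp on chromosome 8 (123537361 to 123625509), holds 41 annotated 5S ribosomal RNA genes of the n-R5s group and was covered over 99.4%, 100%, 98.7% and 98.6%. A domain on chromosome 9 (3005686 to 3038329) was 96.3% repeat-masked. The fold enrichment of its widest peak in each library was 1.48, 1.76, 1.36 and 1.85, below nearly all other peaks of each list. Without these 2 domains, left out after seeing the data, the median covered shares were 99.9%, 83.6%, 65.4% and 51.0%.

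The domains of every autosome covered less at E18.5. The covered length differed from that at E14.5 by -26.2% on chromosome 14 and by -40.9% on chromosome 11, the ends of the range over the 19 autosomes. Chromosome 11 had 5.24 domains per 10 Mb, the highest density, and chromosome 16 had 0.713, the lowest.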

How the data were processed

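ChIP-seq for H3K27me3 had been run on 2 E14.5 and 2 E18.5 libraries of wild-type dermal fibroblasts. The input library was not analysed here. The submitters' processing notes name Bowtie2 2.3.5.1, SAMtools 1.9, MACS2 2.2.7.1, deepTools 3.5.1 and mm10. Broad peaks were called per library at a q-value of 0.01, with a control not given in the sources used here. The methods mention subsampling of wild-type samples at E18.5, and whether these libraries were among them is unclear. In the deposited lists, the authors give each peak a fold enrichment, a ratio of pileup to background, and both a p-value and a q-value as −log10. These values only ranked or filtered peaks within a list. Read numbers are not part of the lists, which therefore show neither depth nor a counting interval.

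Peaks overlapping by at least 1 bp were merged with Python 3.11.15, numpy 2.4.6 and pandas 2.3.3. Start sites came from GENCODE vM21 and sequence from GRCm38. In simulated lists, 100% of 462 planted domains were recovered with all measures. Named domains are the 10 with the widest peak, the 5 largest and 5 smallest falls among those wide in both E14.5 libraries, and the 3 each with the largest edge retreat, most pieces and longest gap at E18.5. Named genes start in these, or are the up to 4 list members in the longest domains, and lost list members. The domains and lists were chosen with earlier results of these data known. A two-sided exact permutation test over the stages has 3 splits. Alternatives were stricter q-values, equal list sizes, other widths, merging rules, edges and windows, differences within replicate numbers, and each library left out once.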

Additional observations from a re-analysis of the deposited data

Results flagged for a closer look

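Peaks of 10 kb or wider also lay on chromosome X, which the choice of domains left out. There were 6 in E14.5 replicate 1 and 5 in E14.5 replicate 2, and 2 and 1 in E18.5 replicates 1 and 2. The order of the libraries was that of the autosomal domains. They are listed because they lie in data outside the comparisons. The input library was not analysed here, and the difference between the stages was not tested.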

How the results depend on the processing

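Of 95 alternative values of the 9 results, 81 counted as unchanged, 12 moved and 2 reversed. Unchanged meant within the spread of the replicates or within 1.5 times the count. For the covered length it meant only that the sign was the same, whatever the size. For the pieces the spread, 0.755, was wider than the difference of 0.71 itself, so large changes in it also counted as unchanged. The number of domains was 1064 with single peaks of at least 8000 bp, 313 with at least 15000 bp, 339 with a wide peak in both libraries of a stage and 218 with one in an E18.5 library, where the fall in covered share was 16.8 points. The edge retreat was 2346 bp at a −log10 q-value of at least 5, 2361 bp with peaks within 3000 bp merged and 2772 bp for the edges of the widest peak. The difference in pieces reversed, to -0.18 at the stricter q-value and -0.077 with peaks merged. The cause was not tested in these cases.

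Leaving out each library in turn gave 359 to 692 domains, a covered length difference of -40.5% to -17.7%, a fall in share of 15.8 to 41.3 points, an edge retreat of 825 to 2021 bp, a difference of 0.55 to 1.46 pieces, and 10.4 to 20.9 points between start sites and the rest. The fewest domains and the smallest differences in length, share, retreat and start sites were those without E14.5 replicate 1.

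The replicate numbers are shared by the stages, but nothing in the labels pairs the libraries, and the deviations of same-numbered libraries correlated at 0.05 over domains. With the replicate number as a block, the difference was -34.2% in covered length, 31.0 points in share, 0.71 pieces, 1524 bp in retreat and 18.4 points at start sites, and no call changed.

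Among the 21 named domains, 132 of 147 alternative values stayed within the spread of the replicates. The Hlx domain, at -0.96 points, ran from -8.21 to 6.29 points with 1 library left out, turning sign without E14.5 replicate 2 and, at 0.97 points, without E18.5 replicate 2. The Sall3 domain, at 1.09 points, ran from -0.093 points without E14.5 replicate 1 to 2.27 points without E14.5 replicate 2. Because the lists hold no read counts, a base outside a peak can lie just under the threshold of its list, and 2 libraries per stage limit every comparison.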
